A study of Mus musculus with 10 samples.

Results

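The voltage-gated calcium and sodium channel genes of 5 cell lines from mouse small cell lung cancer (SCLC) were compared with a MYCN transgene switched on and switched off. Members were taken by symbol: every gene whose name begins with Cacna, Cacnb or Cacng, and every gene named Scn followed by digits and a single a or b. This rule found 39 of the 24391 genes in the files, 19 that encode pore-forming subunits and 20 that encode auxiliary subunits. The 26 members with at least 10 counts in 4 or more of the 10 libraries form the basis of the description, 14 of them pore genes and 12 auxiliary genes, and the other 13 had too few counts. The rule used no difference between the groups.

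SCLC is a lung cancer whose cells usually resemble neuroendocrine cells, and MYCN is a transcription factor of the MYC family that is amplified in a fraction of these tumours. All lines carry the genotype that the labels give as Rb;p53, TRE-MYCN, LSL-RTTA: the tumour suppressors Rb and p53 are altered, and MYCN sits behind a tetracycline-responsive promoter that the activator rtTA switches on in the presence of doxycycline. The MYCN-on group (ON DOX, 5 libraries) was set against the MYCN-off group, cultures of the same lines kept without doxycycline for 4 days (OFF DOX, 5 libraries), with 1 library for each line and condition. The lines are G4314, G9351, G9488, G9529 and G9577, and values of single libraries are listed in that line order. No line without the transgene was analysed here, so an effect of doxycycline itself cannot be told apart from an effect of MYCN. How rtTA was activated in the tumours of origin is not given in the labels.

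Voltage-gated channels open when the membrane potential changes and let calcium or sodium ions into the cell. A calcium channel of the high-voltage class is built around a pore protein (alpha1, the Cacna1 genes), with an alpha2delta subunit (Cacna2d genes) that raises the number of channels at the surface and a beta subunit (Cacnb genes) that binds the pore protein from the inside and promotes its delivery to the membrane. T-type pores open at lower voltages and do not require these partners. Sodium channels consist of a large pore protein (the Scn genes ending in a) and small beta subunits (the Scn genes ending in b) that tune gating and adhesion. Neuroendocrine cells and SCLC cells use such channels for electrical activity and for calcium-triggered secretion, and the P/Q-type pore encoded by Cacna1a is a main target of the autoantibodies in the Lambert-Eaton syndrome that accompanies some human SCLC.

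Library totals ran from 9586465 to 11960074 counts in the MYCN-on group and from 9928420 to 11123998 counts in the MYCN-off group. Levels are CPM scaled by edgeR's TMM factors, so they are relative to each library's total, and a floor of 3 counts corresponds to 0.264 to 0.334 CPM. Changes are log2, MYCN on minus MYCN off, from edgeR's quasi-likelihood test with the line as a block over 12835 genes, with their standard errors (SE), and "fell" or "rose" refers to a Benjamini-Hochberg adjusted p under 0.05. Mycn itself was at 538, 496, 884, 791 and 977 CPM in the MYCN-on libraries, against 176.5, 27.6, 189, 110 and 85.9 CPM in the MYCN-off libraries (log2 change 2.86, SE 0.378, adjusted p = 0.00421). Counts of mouse Mycn were thus higher with MYCN on in every line, as labelled, but the labels do not give the species of the transgene, so these counts may measure it only in part. Myc changed by -2.64 (SE 0.3, adjusted p = 0.00339).

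Line G9577 stood apart from the other 4 and went against the neuroendocrine type in most markers. Its 10 neuroendocrine markers summed to 224 CPM in the MYCN-on library and 173.5 CPM in the MYCN-off library. The other lines had 3322 to 4126 CPM in MYCN-on libraries and 5163 to 6587 CPM in MYCN-off libraries. Most of the G9577 sum was Ncam1 (99.8 and 124.7 CPM with MYCN on and off) and Uchl1 (117.9 and 17.25 CPM). G9577 had 11.8 CPM or less of each other marker, with Dll3 at 0 in both its libraries. Its 10 mesenchymal markers summed to 2784 CPM in the MYCN-on library and 9321 CPM in the MYCN-off library, against 5.59 to 14.4 CPM in the 8 libraries of the other lines. The 5 epithelial markers summed to 10.8 CPM (MYCN on) and 40.1 CPM (MYCN off) in G9577 and to 1612 to 3245 CPM elsewhere. Of 3 endothelial markers Kdr alone was high in G9577, at 35.4 CPM (MYCN on) and 130.4 CPM (MYCN off), while Pecam1 was at 0.28 and 0.557 CPM and Cdh5 at 0 there, and the 3 summed to 0.558 to 2.36 CPM in the other lines. The 7 neuronal markers summed to 21.4 CPM (MYCN on) and 43.75 CPM (MYCN off) in G9577 and to 639.9 to 1331 CPM elsewhere. Skeletal muscle markers were low in all 10 libraries (0.987 to 5.07 CPM), and leukocyte markers were at 1.72 to 5.80 CPM except in the MYCN-off library of G9577 (60.9 CPM), where Lyz2 gave 54.99 CPM and Ptprc and Cd3e were at 0. Counts of calls are therefore given with and without G9577.

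Promoter windows of RefSeq (build GRCm38.p6) ran from 250 bases before to 50 bases after the annotated start. They were looked up for the 26 reported members alone and were available for 18 of them, in 28 windows. The stretches below are the 150 bases just before the start site of 3 members that fell: Cacna2d1, the most abundant member, and Scn1a and Scn9a, neighbours in the sodium channel gene cluster of chromosome 2. They are printed 5′ to 3′ on the strand of the gene, at chr5:15934541-15934690 (plus strand), chr2:66440838-66440987 (minus strand) and chr2:66634963-66635112 (minus strand). Capitals mark the GC box, whose letters are spelled out after the sequences.
Cacna2d1: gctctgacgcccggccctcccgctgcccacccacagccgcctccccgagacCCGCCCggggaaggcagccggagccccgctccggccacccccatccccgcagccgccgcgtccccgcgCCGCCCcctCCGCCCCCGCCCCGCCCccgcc
Scn1a: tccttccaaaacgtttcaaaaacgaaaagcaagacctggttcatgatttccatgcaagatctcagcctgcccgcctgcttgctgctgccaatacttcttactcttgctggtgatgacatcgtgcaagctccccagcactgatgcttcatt
Scn9a: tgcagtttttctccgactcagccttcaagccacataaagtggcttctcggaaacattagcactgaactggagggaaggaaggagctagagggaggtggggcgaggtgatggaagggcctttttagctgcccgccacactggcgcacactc

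These windows differ in composition although all 3 genes fell. The GC box was read as GGGCGG on one strand or CCGCCC on the other. The Cacna2d1 stretch is 85.3% G or C and holds 5 matches, of which some adjoin or overlap, whereas the Scn1a stretch is 48.0% G or C and the Scn9a stretch 55.3%, both with no match. The canonical E-box CACGTG, the letters that MYC family proteins bind best, was in 0 of the 28 member windows, against 7.15% of all 32851 windows. The variant CACGCG or CGCGTG was in 6 of the 28 (21.4%, against 9.27% of all windows), and CATGTG or CACATG was in 2 (7.14%, against 14.2%). GGGCGG or CCGCCC was in 13 (46.4%, against 35.7%). Among the 10 windows of members that fell, CACGCG or CGCGTG was in 1, CATGTG or CACATG in 1 and GGGCGG or CCGCCC in 3. Member windows had a median G and C content of 62.85%, against 52.7% over all windows, and all matches were searched on both strands. A match describes these letters in these windows and says nothing of binding.

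With MYCN on, 10 of the 25 members that could be tested fell and 0 rose, against a background in which 15.6% of all genes tested fell and 15.3% rose, 31.0% in either direction (edgeR's quasi-likelihood test). At an unadjusted p under 0.05, 12 of the 25 members were lower and 0 higher, while 5800 of the 12835 genes tested passed that limit in either direction. Counted in either direction, the share of members past it was thus close to that of all genes. The count of all genes at that limit was not split by direction. DESeq2 called 12 lower and 0 higher, and limma-voom called 11 lower and 0 higher. Among those that fell were the pore genes Cacna1a, Cacna1c, Cacna1e, Scn1a, Scn3a and Scn9a and the auxiliary genes Cacna2d1, Cacnb4 and Scn3b. The fitted change was below 0 for 25 of 25 tested members, against 55.1% of all genes tested, and the median change was -0.89 for the members and -0.08 for all genes. These 25 are the members that passed the filter on low counts. Of the members, 21 reached 10 counts in 4 or more MYCN-on libraries, so most did not enter the test through the MYCN-off group alone. Scn3b, which fell, reached 10 counts in 2 MYCN-on and 4 MYCN-off libraries.

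Pore genes and auxiliary genes had similar median changes, and the difference between the classes was not tested. Of 14 pore genes 7 fell, with a median change of -0.89, and of 11 tested auxiliary genes 3 fell, with a median of -0.90. By ion, 5 of 18 tested calcium channel genes fell, with a median of -0.89, and 5 of 7 tested sodium channel genes fell, with a median of -1.02. Without G9577 all 10 calls were kept, and Cacna1b, Cacna2d3, Cacng4 and Cacng5 were called lower as well. In that fit 17.4% of all genes fell. Cacng5 reached 10 counts in 1 MYCN-on and 3 MYCN-off libraries, so it entered that fit mostly through the MYCN-off group, where it is high. Leaving out another line kept 6 of the 10 calls (without G9351), 7 (without G4314 or G9488) or 9 (without G9529). With the line left out of the model as a block, 0 members fell (3 at an unadjusted p under 0.05) and 0.46% of all genes fell. Of 10 neuroendocrine markers 6 also fell with MYCN on and 0 rose. Among those that fell was Chga (log2 change -1.87, adjusted p = 0.00694). The markers that did not pass had fitted changes above 0, among them Dll3 (0.13, adjusted p = 0.569) and Uchl1 (0.38, adjusted p = 0.518). The part of these markers in the channel result was not tested. In bulk RNA, fewer cells that express a channel and less channel RNA per cell cannot be told apart.

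**Figure D1:**
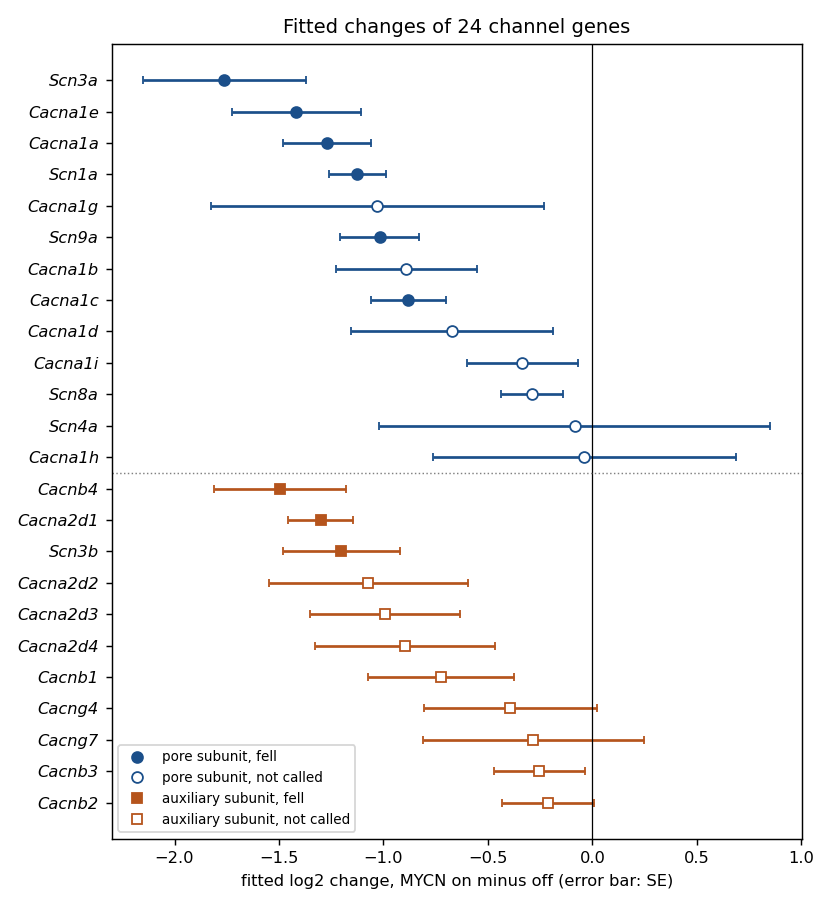
Fitted log2 change (MYCN on minus MYCN off, x axis) of 24 tested members, with bars of 1 SE, grouped by subunit role and marked by whether the gene passed an adjusted p of 0.05. All points lie below 0, from -1.76 for Scn3a to -0.04 for Cacna1h.

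Of the 3 neuronal high-voltage pores, which admit the calcium that triggers vesicle release, 2 fell. Cacna1a, the P/Q-type pore, was at 154.5, 100.4, 5.39, 96.5 and 16.6 CPM with MYCN on, against 618.5, 316.5, 10.7, 170.7 and 29.1 CPM with MYCN off (log2 change -1.27, SE 0.21, adjusted p = 0.00698). Its level was lower with MYCN on in all 5 lines, by 2.41-fold in the fit, but the groups overlapped because G9488 and G9577 carried little of it in either condition. The call held with each line left out in turn, at adjusted p of 0.00392 to 0.0345. Cacna1e, the R-type pore, was at 8.63, 20.7, 26.9, 5.32 and 0.0932 CPM with MYCN on, against 15.0, 78.9, 60.0, 21.1 and 0 CPM with MYCN off (log2 change -1.42, SE 0.31, adjusted p = 0.0159). Each of the 4 lines that expressed it had less with MYCN on, while in G9577 it was not detectable above the floor, and the call was lost without G9351 (adjusted p = 0.0772).

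Cacna1b, the N-type pore of nerve terminals, did not pass the threshold over 5 lines. Its level was 108.5, 136, 80.4, 62.1 and 0.28 CPM with MYCN on, against 217.5, 163, 102, 121 and 3.67 CPM with MYCN off (log2 change -0.89, SE 0.336, adjusted p = 0.0806). Every line was lower with MYCN on, from -0.26 in G9351 to -3.04 in G9577, and the spread between lines was wide. Without G9577 the change was -0.63 and the gene was called lower (adjusted p = 0.0195).

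L-type pores, long-lasting channels that also couple calcium entry to gene regulation, were represented mainly by Cacna1c. Cacna1c was at 80.7, 32.3, 91.2, 65.0 and 159.8 CPM with MYCN on, against 125.7, 102, 175.5, 96.2 and 246 CPM with MYCN off (log2 change -0.88, SE 0.181, adjusted p = 0.013). Unlike the neuronal pores it had its highest level in G9577 in both conditions, and it was lower with MYCN on in 5 of 5 lines although the groups overlapped. The call was lost narrowly without G9488 (adjusted p = 0.0509). Cacna1d, the L-type pore that opens at more negative voltages, was at 0.093 to 9.67 CPM with MYCN on, against 0 to 13.4 CPM with MYCN off and did not pass (log2 change -0.67, SE 0.482, adjusted p = 0.308). Its models share 4707 exon bases with Chdh, and reads there were counted for neither gene.

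None of the 3 T-type pores, low-voltage channels that set firing in pacemaking cells, passed the threshold in edgeR's test, at an unadjusted p under 0.05, or under any alternative that was run. Cacna1h was at 140.8, 54.8, 27.9, 96.2 and 18.7 CPM with MYCN on, against 154.4, 62.2, 9.10, 38.4 and 219 CPM with MYCN off (log2 change -0.04, SE 0.724, adjusted p = 0.972). The lines disagreed: the change was 1.6 in G9488 and 1.32 in G9529, -0.13 in G4314 and -0.18 in G9351, and -3.54 in G9577. Without G9577 the fitted change was 0.63 (adjusted p = 0.175). Its models share 312 exon bases with Tpsg1. Cacna1g was at 3.23, 7.89, 3.72, 1.90 and 5.59 CPM with MYCN on, against 1.36, 10.2, 7.63, 2.73 and 147.9 CPM with MYCN off (log2 change -1.03, SE 0.797, adjusted p = 0.343). Only the MYCN-off library of G9577 was high. Cacna1i ranged over 0.186 to 6.37 CPM with MYCN on, against 0.111 to 9.60 CPM with MYCN off (log2 change -0.34, SE 0.265, adjusted p = 0.351).

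Among the alpha2delta genes the abundant one fell. Cacna2d1, whose protein is also a target of gabapentin, was at 183, 372, 248.9, 244 and 61.2 CPM with MYCN on, against 497, 1151, 714, 552 and 100.9 CPM with MYCN off (log2 change -1.30, SE 0.157, adjusted p = 0.00368). It was lower with MYCN on in all 5 lines, by 2.46-fold in the fit, and within the 4 other lines every MYCN-on library lay below every MYCN-off library. G9577 was low in both conditions, so that the groups as a whole overlapped. The call held with each line left out, at adjusted p of 0.00113 to 0.0226.

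The other 3 alpha2delta genes had fitted changes of similar size with wider error. Cacna2d3 was at 41.9, 57.3, 41.7, 79.3 and 2.05 CPM with MYCN on, against 113, 80.8, 53.7, 99.4 and 14.8 CPM with MYCN off (log2 change -0.99, SE 0.359, adjusted p = 0.0714). It was lower with MYCN on in 5 of 5 lines and was called without G9577 (log2 change -0.64, adjusted p = 0.0413). Cacna2d2 lay at 0 to 1.96 CPM with MYCN on, against 0.779 to 4.53 CPM with MYCN off (log2 change -1.07, SE 0.478, adjusted p = 0.123). Cacna2d4 lay at 0.0932 to 5.67 CPM with MYCN on, against 0.334 to 8.15 CPM with MYCN off (log2 change -0.90, SE 0.432, adjusted p = 0.147).

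The beta subunits split by gene. Cacnb4, a beta subunit of brain, was at 14.4, 16.3, 15.6, 3.99 and 7.92 CPM with MYCN on, against 37.0, 26.8, 34.8, 30.03 and 22.3 CPM with MYCN off (log2 change -1.50, SE 0.315, adjusted p = 0.0141). It was the single reported member whose groups did not overlap, with every MYCN-on library below every MYCN-off library, which was true of 2.88% of all genes tested. The call held without each line in turn, at adjusted p of 0.016 to 0.0486. Cacnb3, the most abundant beta subunit gene, was at 71.1, 78.5, 58.5, 60.2 and 70.8 CPM with MYCN on, against 68.2, 81.0, 48.5, 77.9 and 162 CPM with MYCN off (log2 change -0.25, SE 0.218, adjusted p = 0.393). Its level stayed within 48.5 to 81.0 CPM in 9 of the 10 libraries, and the MYCN-off library of G9577 stood above them. Cacnb1, known from skeletal muscle, lay at 2.79 to 18.0 CPM with MYCN on, against 2.64 to 28.05 CPM with MYCN off (log2 change -0.72, SE 0.351, adjusted p = 0.148). Cacnb2, known from heart, lay at 8.53 to 25.6 CPM with MYCN on, against 7.97 to 39.8 CPM with MYCN off (log2 change -0.21, SE 0.219, adjusted p = 0.477).

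**Figure D2:**
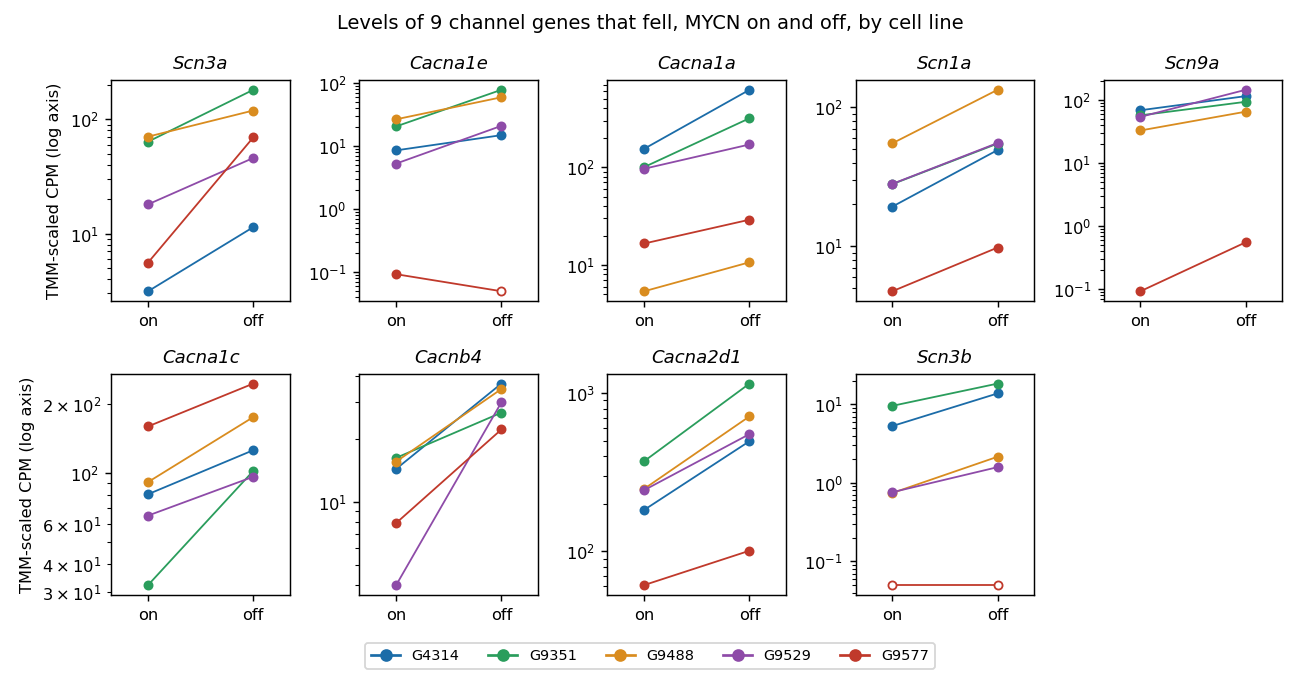
TMM-scaled CPM (log axis) of 9 members that fell, by line, with the MYCN-on library left of the MYCN-off library of the same line and a joining line for each cell line. Open circles at the bottom are libraries with 0 counts. The MYCN-on point is the lower one in all 5 lines for 7 of these genes, with Cacna1e and Scn3b undecided at the floor in G9577.

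The Cacng genes that passed 10 counts in 4 libraries, Cacng4, Cacng5 and Cacng7, encode relatives of the muscle calcium channel gamma subunit that are known as auxiliary subunits of AMPA-type glutamate receptors in neurons. Cacng4 was at 10.49, 36.0, 9.29, 12.8 and 1.86 CPM with MYCN on, against 12.1, 51.1, 17.5, 30.6 and 0.334 CPM with MYCN off (log2 change -0.39, SE 0.414, adjusted p = 0.484). Except in G9577 it was lower with MYCN on in every line, and without that line it was called lower (log2 change -0.71, adjusted p = 0.0356). Cacng7 lay at 0 to 10.6 CPM with MYCN on, against 0 to 38.4 CPM with MYCN off (log2 change -0.28, SE 0.528, adjusted p = 0.702), and both highest values were those of G9577. Cacng5 had 0, 45, 1, 1 and 0 counts with MYCN on, against 18, 1337, 1, 22 and 0 counts with MYCN off. It therefore sat mostly in G9351, at 4.44 CPM with MYCN on, against 125.3 CPM with MYCN off, and it failed the filter for the test over 5 lines. In the fit without a filter on low counts its change was -4.54 (SE 0.604, adjusted p = 0.00269), and with the filter of the members' own rule it was -4.52 (SE 0.632, adjusted p = 0.00605). Cacng5 met that rule with 1 MYCN-on and 3 MYCN-off libraries, mostly through the group where it is high. Its direction there is therefore no independent support.

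Of 6 reported sodium pores 4 fell. Scn1a, a pore of inhibitory neurons that is mutated in human Dravet syndrome, was at 19.3, 28.0, 55.1, 28.1 and 4.75 CPM with MYCN on, against 49.3, 54.8, 133.7, 55.4 and 9.80 CPM with MYCN off (log2 change -1.13, SE 0.136, adjusted p = 0.00368). The change was nearly the same size in every line, from -0.96 in G9351 to -1.34 in G4314, although the level differed between lines so that the groups overlapped. Scn9a, the pore known from pain-sensing neurons, was at 69.5, 57.7, 33.2, 54.5 and 0.0932 CPM with MYCN on, against 116, 94.6, 65.9, 147 and 0.557 CPM with MYCN off (log2 change -1.02, SE 0.189, adjusted p = 0.00975). All 5 lines had less of it with MYCN on, and in G9577 it rested on 1 count and 5 counts. Both calls held with each line left out. Scn9a shares 638 exon bases with Gm13629, which lies on the opposite strand, and the counts were made without strand.

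Scn3a fell with a less stable call. Scn3a, a pore of the embryonic brain, was at 3.14, 63.9, 70.6, 18.1 and 5.59 CPM with MYCN on, against 11.4, 181.5, 120, 46.0 and 69.6 CPM with MYCN off (log2 change -1.76, SE 0.389, adjusted p = 0.0164). It was 3.39-fold lower with MYCN on, a size that rested in part on G9577, without which the change was -1.32. The call was lost without G4314 (adjusted p = 0.0556) or G9351 (0.051).

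The other 2 sodium pores did not pass. Scn8a, a main pore of the axon's initial segment, was at 87.4, 76.7, 58.4, 87.7 and 0.28 CPM with MYCN on, against 98.6, 88.8, 92.4, 89.8 and 0.445 CPM with MYCN off (log2 change -0.29, SE 0.148, adjusted p = 0.17). G9577 had almost none of it, and the other 4 lines had more with MYCN off in each case, by little in G9529. Scn4a, the pore of skeletal muscle, had a change of -0.08 (SE 0.936, adjusted p = 0.951) and was at 2.90 CPM or less in 9 of the 10 libraries. The exception was the MYCN-on library of G9577, at 9.13 CPM against 0.557 CPM with MYCN off in that line.

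Scn3b was the only sodium beta gene with enough counts to report. It reached 10 counts in 2 MYCN-on and 4 MYCN-off libraries, so the MYCN-off group alone met the count rule. It was at 5.29, 9.57, 0.744, 0.76 and 0 CPM with MYCN on, against 13.8, 18.4, 2.15, 1.58 and 0 CPM with MYCN off (log2 change -1.20, SE 0.279, adjusted p = 0.023). All 4 lines with any count had less with MYCN on, and the groups overlapped since the lines differed more than the conditions. The call was lost without G4314 (adjusted p = 0.09), G9351 (0.0734) or G9488 (0.0706).

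Line by line, the reported members lay lower than the bulk of genes. With a prior count of 2, the change was below 0 for 21 of 26 members in G4314, 25 in G9351, 19 in G9488, 24 in G9529 and 19 in G9577. Among all genes tested the share below 0 was 52.0%, 49.9%, 50.3%, 51.9% and 57.7% in these lines. The members' median change was -0.71, -0.50, -0.71, -0.70 and -1.10, against -0.04, 0.0, -0.01, -0.02 and -0.23 for all genes. Of the 26, 12 were lower with MYCN on in all 5 lines, which was true of 23.2% of all genes tested. A further 8 members were lower in 4 lines and 6 in 3 or fewer. G9577 had the highest count of large changes of any line: 14 members were at or below -1 there (25.9% of all genes in that line), against 6 to 11 members in the other lines (8.92% to 14.4% of all genes).

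**Figure D3:**
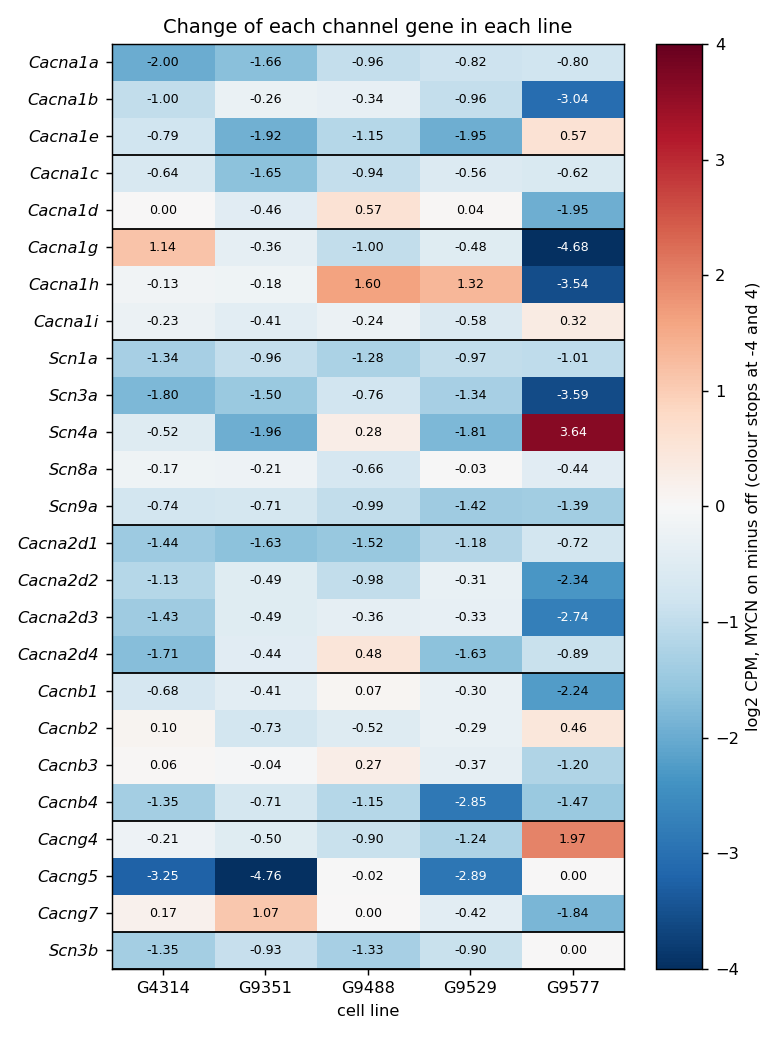
Log2 change (MYCN on minus MYCN off, prior count 2) of 25 reported members in each line, as a colour scale that stops at 4 on either side, with members ordered by subunit role. Scn1a and Cacna2d1 are lower in every line. Several members change sign between lines, among them Cacna1g, Cacna1h, Cacng4, Cacng7 and Scn4a.

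Compared per length, as TMM-scaled CPM divided by exon length in kilobases (RPKM), Cacna2d1 had the highest mean level of all members, at 29.6 ± 15.1 RPKM with MYCN on and 80.5 ± 50.7 RPKM with MYCN off (SD, n = 5 each). Cacnb3 came next at 22.5 ± 2.77 RPKM with MYCN on and 29.1 ± 14.5 RPKM with MYCN off. Among the genes below it, with MYCN on and MYCN off, were Cacng4 (14.3 and 22.7 RPKM), Cacna2d3 (12.0 and 19.6 RPKM) and Cacna1a (9.42 and 28.9 RPKM). Their order is not firm, since the SD of Cacna1a with MYCN off was 31.6 RPKM and neighbours differed by less than their spread.

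Summed over the 19 pore genes, the level was 60.7 ± 23.9 RPKM with MYCN on and 119.5 ± 31.7 RPKM with MYCN off, and it was lower with MYCN on in 5 of 5 lines. The 20 auxiliary genes summed to 94.0 ± 35.4 RPKM with MYCN on and 187.5 ± 72.0 RPKM with MYCN off, also lower in 5 of 5 lines. This sum includes the Cacng genes known from AMPA receptors, at 20.2 ± 13.6 RPKM with MYCN on and 41.2 ± 28.9 RPKM with MYCN off. The auxiliary sum divided by the pore sum was 1.77 ± 0.805 with MYCN on and 1.62 ± 0.563 with MYCN off, and it was lower with MYCN on in 3 of 5 lines, so the balance between the classes did not move one way. In G9577 the pore sum was 18.8 RPKM with MYCN on and 76.0 RPKM with MYCN off, where the other lines had 65.8 to 76.95 RPKM with MYCN on, against 110.6 to 163.8 RPKM with MYCN off. By subunit, the sums were 42.4 ± 21.8 and 101 ± 56.6 RPKM for alpha2delta genes and 30.4 ± 4.3 and 42.2 ± 14.5 RPKM for beta genes, with MYCN on and off.

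The dominant calcium pore gene depended on the line and in part on the condition. Among calcium pores with MYCN on, Cacna1a led in G4314 (35.5% of the calcium pore sum) and G9529 (33.8%), Cacna1b in G9351 (35.3%) and G9488 (38.6%), and Cacna1c in G9577 (67.1%). With MYCN off, Cacna1a led in G4314 (60.0%), G9351 (49.6%) and G9529 (44.7%), Cacna1c in G9488 (37.3%) and Cacna1h in G9577 (40.3%). Each lead rests on 1 library, and some were narrow. With MYCN on, G9351 had 13.9 RPKM of Cacna1b and 12.7 of Cacna1a, and G9529 had 12.2 of Cacna1a and 11.7 of Cacna1h. In G9488 with MYCN off, Cacna1c was at 11.9 RPKM and Cacna1b at 10.4. The alpha2delta and beta genes each had 1 leading gene: Cacna2d1 gave 59.8% to 93.5% of the alpha2delta sum with MYCN on and 66.9% to 86.7% with MYCN off, and Cacnb3 led the beta genes in all 10 libraries.

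**Figure D4:**
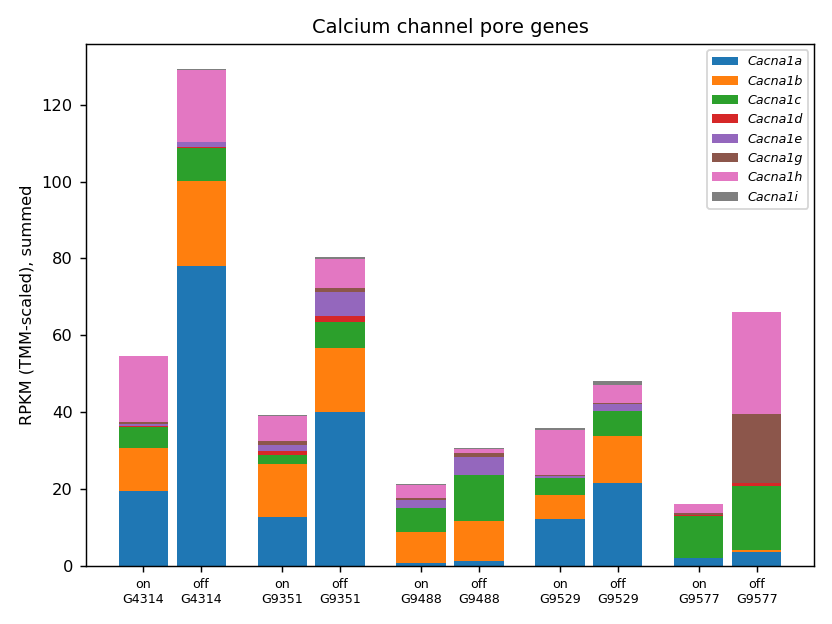
Stacked levels (RPKM) of the reported calcium pore genes in each library, with the MYCN-on bar left of the MYCN-off bar of the same line. The sum is lower with MYCN on in every line, and Cacna1a gives the tallest segment in the MYCN-off bars of G4314, G9351 and G9529.

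A group of 4 members lies in 1 cluster on chromosome 2, given here in the files' build mm9: Scn3a at chr2:65295175-65405549 (minus strand), Scn1a at chr2:66108839-66278894 (minus), Scn9a at chr2:66318138-66473019 (minus) and Scn7a at chr2:66511483-66622967 (minus). The files also list the Scn2a gene there under its older symbol Scn2a1, at chr2:65508502-65605504 (plus), which the naming rule does not take. Scn2a1, a pore of excitatory neurons, was at 2.65, 5.03, 17.7, 1.62 and 3.45 CPM with MYCN on, against 10.8, 24.9, 33.5, 8.10 and 23.4 CPM with MYCN off (log2 change -2.05, SE 0.303, adjusted p = 0.00519). All 4 sodium channel genes of the cluster that could be tested fell. Scn7a, a sodium-sensing relative of these pores, stayed at 7 counts or fewer in the MYCN-on libraries and reached 36 and 67 counts in the MYCN-off libraries of G9351 and G9577.

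The other tested genes inside the cluster did not pass: Csrnp3 changed by -0.12 (SE 0.181, adjusted p = 0.62), Galnt3 by -0.29 (SE 0.273, adjusted p = 0.431), Ttc21b by 0.29 (SE 0.19, adjusted p = 0.262) and Gm13629 by -0.62 (SE 0.409, adjusted p = 0.274). Within 500 kb on either side, 1 of 3 tested genes fell: Slc38a11, 93.1 kb from the Scn3a end, at -2.22 (SE 0.36, adjusted p = 0.00668). Cobll1 (-0.53, adjusted p = 0.165) and Grb14 (-0.49, adjusted p = 0.0769) did not pass. The genes with a call were thus the channel genes and Slc38a11, with uncalled genes between Scn2a1 and Scn1a.

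**Figure D5:**
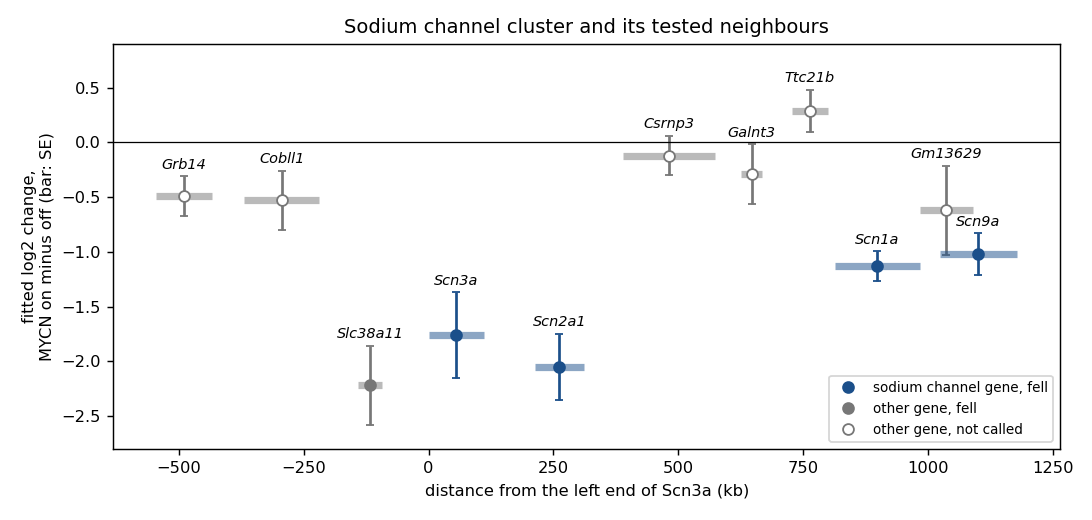
Log2 change (MYCN on minus MYCN off, with bars of 1 SE) of each tested gene in and beside the chromosome 2 sodium channel cluster, against distance in kb from the outer end of Scn3a. The 4 sodium channel genes lie between -2.05 and -1.02, and the 3 genes between Scn2a1 and Scn1a lie between -0.29 and 0.29.

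Channel genes are long, and length went along with the direction of change over all genes. The tested members spanned a median of 129 kb, against 22.6 kb for all genes tested. Of the 1751 tested genes of 100 kb or more, 26.5% fell and 5.77% rose, with a median change of -0.32. Among the members 16 reach that length, and 8 of them fell, while 2 of the 9 shorter members fell. The part of gene length in the channel result was not tested.

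Of 42 partner genes, which anchor, regulate or act beside these channels, 36 could be tested, 17 fell and 1 rose, with a median change of -0.61 (these counts leave out Scn2a1). Over all genes tested 15.6% fell and 15.3% rose, with a median of -0.08, and the counts of the groups below are small. The partner list was drawn up with earlier results of these data known. Its counts are therefore no independent support for a difference from all genes. All 4 genes of the sodium leak channel complex fell: the pore Nalcn by 0.53 (SE 0.156, adjusted p = 0.0453), Unc79 by 0.59 (SE 0.173, adjusted p = 0.0393), Unc80 by 0.87 (SE 0.185, adjusted p = 0.0146) and Fam155a by 0.97 (SE 0.205, adjusted p = 0.0146) on the log2 scale. These calls rested on few lines: without G9351 none of the 4 was called (adjusted p of 0.0535 to 0.168), without G4314 Unc80 alone was (0.0467), and with no filter on low counts Nalcn was not (0.0702). Of 6 tested calcium removal genes 4 fell: the plasma membrane pump Atp2b2 (-1.44, adjusted p = 0.00368) and the sodium-calcium exchangers Slc8a1 (-0.88, adjusted p = 0.00459), Slc8a2 (-1.46, adjusted p = 0.00648) and Slc8a3 (-2.76, adjusted p = 0.046). The calls of the first 3 held with each line left out, and that of Slc8a3 was lost without any line but G9577 (0.0564 to 0.126). Both entry and removal genes of calcium were therefore among those that fell.

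Of 9 release site genes 4 fell, among them the calcium sensor Syt1 (-1.35, SE 0.25, adjusted p = 0.00964), the SNARE protein Snap25 (-0.98, SE 0.23, adjusted p = 0.0195) and Rimbp2, which links calcium channels to release sites (-0.94, SE 0.263, adjusted p = 0.0341). Of 7 tested anchors and modulators of sodium channels 3 fell and 1 rose. Fgf13 and Fgf14, intracellular factors that bind the sodium pore's tail, changed by -2.11 (SE 0.338, adjusted p = 0.00651) and -1.39 (SE 0.147, adjusted p = 0.003), and Nedd4l, a ubiquitin ligase of sodium channels, by -0.73 (SE 0.22, adjusted p = 0.0418). Ank2, a membrane anchor, was at 144, 224, 202, 202 and 110 CPM with MYCN on, against 79.7, 107, 181, 96.5 and 88.6 CPM with MYCN off (log2 change 0.69, SE 0.171, adjusted p = 0.023). All 5 lines had more of it with MYCN on, with overlapping groups, and its call was lost without G4314, G9351 or G9529 (adjusted p = 0.0795, 0.0838 and 0.0621). Without G9351, 7 of the partners were called lower, and without G4314, 10.

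Among 3 tested inhibitors of calcium channels Gem fell (-2.8, SE 0.646, adjusted p = 0.0187), with few counts outside G9577, and among 7 calmodulin genes and kinases Camk2a fell (-1.10, SE 0.242, adjusted p = 0.016). Rest, which encodes a repressor of neuronal genes, was not tested after the filter. Its level was 0.882, 0.888, 0.372, 0.285 and 40.2 CPM with MYCN on, against 0.906, 0.281, 0.685, 0.088 and 62.1 CPM with MYCN off, so that it was high in G9577 in both conditions.

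The 13 members below the count rule had few counts or counts in few libraries. Of them 9, namely Cacna1s, Cacng1, Cacng2, Cacng3, Cacng6, Scn2b, Scn4b, Scn10a and Scn11a, had fewer than 10 counts in every library, the highest being 6. Cacna1f, an L-type pore of the retina, had 4, 1, 4, 3 and 0 counts with MYCN on, against 37, 4, 72, 8 and 1 with MYCN off. Cacng8 had 17 counts with MYCN on and 16 with MYCN off in G9577 and at most 1 elsewhere. The pore genes among the 9 were thus Cacna1s, the L-type pore of skeletal muscle, and Scn10a and Scn11a, known from pain-sensing neurons.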

How the data were processed

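RNA was sequenced from 10 cultures, 5 lines with and without doxycycline. Per the labels' protocols, mRNA was captured by oligo-dT and prepared with a NEBNext Ultra kit, in which strand is not kept. Per the submitters' processing notes, bcl2fastq 1.8.4 and STAR 2.5.2a (build mm9) were used. Values deposited by the authors are raw read counts per gene, made per the file headers with featureCounts 1.6.0, unstranded, with no option for multi-mapping reads or reads over several genes, so these were not counted. A member with a near-identical copy is counted in part.

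Genes were kept with filterByExpr (minimum count 10) and scaled by TMM. They held 93.9% to 99.9% of each library's counts. Changes were tested by the quasi-likelihood F test of edgeR 4.0.16 in R 4.3.3, two-sided, with the line as a block, doxycycline as the tested term and Benjamini-Hochberg adjustment over 12835 genes (threshold 0.05, 4 residual degrees of freedom, biological coefficient of variation 28.46%). Each SE was computed as the change over the root of its F value. The line pairs the libraries by the labels: deviations from the condition means correlated at 0.721 to 0.873 within lines and at most at 0.273 between lines. In data simulated on 12687 genes, 67 were changed 1.5-fold, 67 were changed 2-fold and 66 were changed 4-fold. Of these 2.985%, 28.4% and 89.4% were recovered, so a small change can be missed. Far more genes were called in the real data (31.0%), where the Benjamini-Hochberg limit is less strict. The simulated shares therefore do not carry over to it. With the line as a block, p-values measure the spread of the change between lines, not of the level. With 1 culture for each line and condition, this spread includes that between cultures.

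Alternatives were no block, DESeq2 1.42.0, limma-voom (limma 3.58.1), RLE scaling, library size alone, 2 other filters, leaving out each line in turn, and edgeR's glmTreat with a 1.5-fold threshold. Members, partners and marker lists were chosen with earlier results of these data known. Named were all reported members, Mycn, Myc and partners past the threshold, with neighbours of the chromosome 2 cluster and Rest added after their values were seen. The partner Cbarp was not analysed here, and 2 members, 1 marker and 1 partner are counted but not reported here by name. Promoter windows are in build GRCm38.p6 and gene coordinates in mm9, counted from 1, and the builds were not mixed.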

Additional observations from a re-analysis of the deposited data

Results flagged for a closer look

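Log2 CPM levels and per-line changes of the reported members were examined in groups of 5, and in 11 of 78 such groups the highest or lowest sample stood far from the others (its gap to the nearest sample was over 0.71 of the range). Chance flags about 1 in 20 groups. Of the 11, 10 name line G9577. Cacna1b was at -1.09 in G9577 with MYCN on, against 5.96 to 7.09 in the other lines, and at 1.95 with MYCN off, against 6.67 to 7.77. Its change there was -3.04, against -1.0 to -0.26 elsewhere. Scn8a was at -1.09 in G9577 with MYCN on, against 5.87 to 6.46, and at -0.65 with MYCN off, against 6.48 to 6.63. Scn9a was at -1.81 in G9577 with MYCN on, against 5.06 to 6.12, and at -0.42 with MYCN off, against 6.05 to 7.20. Cacna1e was at -2.39 in G9577 with MYCN off, against 3.93 to 6.31, and Cacna2d4 at -0.93 with MYCN off, against 2.07 to 3.06. Cacna2d3 was at 1.16 in G9577 with MYCN on, against 5.39 to 6.31. The remaining flag is Cacng5, which was at 2.21 in G9351 with MYCN on, against -2.39 to -1.80 in the other lines.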

How the results depend on the processing

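The counts of members called depend on pairing the libraries by line. In the fit with no replicate block, 0 members fell (0 pore, 0 auxiliary), with 59 of all genes lower and 215 higher, and 0 partners lower and 0 higher, so 78.5% of calls were higher against 49.6% in the paired fit. Against a fold of 1.5, 3 members fell (Cacna1a, Cacna2d1 and Scn1a, that is 2 pore and 1 auxiliary), with 442 of all genes lower and 427 higher, and 4 partners lower and 0 higher. With 1 line left out, 6 to 14 members fell (4 to 8 pore, 2 to 6 auxiliary), lowest without G9351 and highest without G9577, with 916 to 2249 of all genes lower, 813 to 2244 higher, 7 to 18 partners lower and 0 to 1 higher. Cacna1a, Cacna2d1, Cacnb4, Scn1a and Scn9a were called without each line. Under DESeq2, limma-voom, RLE scaling, library size alone and both other filters all 10 calls were kept. Changes that turned sign were those of 3 members without a call. Cacna1h was at 0.63 and Cacng7 at 0.34 without G9577 (ranges with 1 line left out -0.485 to 0.63 and -0.777 to 0.34). Scn4a was at 1.01 with no replicate block, 0.21 under limma-voom, 0.41 without G9351 and 0.45 without G9529 (range -1.22 to 0.45). The cause was not tested. With no filter on low counts the median change of all genes moved by -0.154, and members at under 1 CPM rest on a few counts.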
